A study of Mus musculus with 36 samples.

Results

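Hes1, Hey1, Hey2, Heyl, Nrarp and Sox9, 6 genes reported as targets of the Notch pathway, were followed in 3 cell types of the mouse liver. They were taken by symbol from the deposited tables, and all 6 were among the 24421 gene symbols counted. Bulk RNA sequencing covered hepatic stellate cells (HSCs, pericytes that store vitamin A), sinusoidal endothelial cells (LSECs, which line the liver's capillaries) and hepatocytes (the parenchymal cells) of C57BL/6 mice. Each cell type had 4 libraries taken 12 h after diphtheria toxin (DT) was injected, 4 taken at 36 h and 4 from a group labelled WT, which the series describes as given PBS, 36 libraries in all. The toxin removes Kupffer cells, which are macrophages resident in liver, and the design asks how their neighbours answer. The labels give no genotype, age or sex, do not say that each library came from 1 animal, and list no group that received the toxin without depletion, so effects of the toxin itself and of the loss of Kupffer cells cannot be told apart. P-values here measure the spread between libraries, which may be technical.

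Notch receptors are cut when a neighbouring cell presents a Delta-like or Jagged ligand. The freed intracellular part joins the DNA-binding protein RBPJ and the co-activator Mastermind and switches on target genes. HES and HEY proteins are bHLH repressors and the best known of these targets, Nrarp binds the transcription complex and dampens it, and Sox9, an SRY-related factor of bile duct cells and progenitors, is reported as a target in liver. In blood vessels Hey1 and Hey2 are linked to arterial identity, Heyl is known from mural cells, and Hes1 responds to signals other than Notch too.

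On GRCm38 (mm10) with the GENCODE M21 annotation, Hes1 lies on chromosome 16 at 30064384 to 30067796 on the plus strand. Hey1 lies on chromosome 3 at 8663359 to 8667256 on the minus strand, and Hey2 on chromosome 10 at 30832359 to 30842801 on the minus strand. Heyl lies on chromosome 4 at 123233556 to 123249875, Nrarp on chromosome 2 at 25180758 to 25183339 and Sox9 on chromosome 11 at 112782224 to 112787760, all 3 on the plus strand. The joined exons measured 2037 bases in Hes1, 3265 in Hey1, 4593 in Hey2, 5113 in Heyl, 2582 in Nrarp and 4135 in Sox9. The files give 1 count per gene and do not separate isoforms.

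The promoters of 2 of the 6 genes, Hey2 and Nrarp, were matched in the RefSeq promoter table (GRCm38.p6), which gives 250 bases before and 50 bases after the start. They are shown because RNA of these genes was high in different cell types, that of Hey2 in HSCs and that of Nrarp in LSECs. Capitals mark TGGGAA, the core that RBPJ binds, on either strand, and CACGTG, a site that HEY proteins bind. Hey2 is chr10:30842734-30843033, minus strand, and Nrarp is chr2:25180508-25180807, plus strand, both read 5′ to 3′ along the gene.
Hey2: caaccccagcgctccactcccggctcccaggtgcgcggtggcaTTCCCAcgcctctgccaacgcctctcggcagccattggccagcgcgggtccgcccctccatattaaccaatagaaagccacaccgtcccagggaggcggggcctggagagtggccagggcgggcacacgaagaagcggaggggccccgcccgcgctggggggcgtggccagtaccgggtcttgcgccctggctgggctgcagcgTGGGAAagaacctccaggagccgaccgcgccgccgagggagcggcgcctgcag
Nrarp: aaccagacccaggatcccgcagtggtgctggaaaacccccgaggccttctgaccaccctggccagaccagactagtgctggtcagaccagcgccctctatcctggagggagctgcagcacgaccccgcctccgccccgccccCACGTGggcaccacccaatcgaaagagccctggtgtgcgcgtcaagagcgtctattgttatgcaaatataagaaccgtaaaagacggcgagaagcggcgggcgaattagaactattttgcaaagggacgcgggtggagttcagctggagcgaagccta
The Hey2 window held TGGGAA 2 times, at bases 44 to 49 on the opposite strand (written TTCCCA here) and at bases 248 to 253 on the gene's own strand, and held no CACGTG. The Nrarp window held no TGGGAA and had CACGTG at bases 143 to 148. The N box CACNAG, to which HES proteins bind, was not marked: on the opposite strand it stood at bases 72 to 77 and 172 to 177 of the Nrarp window, overlapping neither other motif, and on neither strand of the Hey2 window. Among 32851 promoters of the same length, TGGGAA occurred in 25.6%, CACGTG in 7.15% and CACNAG in 42.5% on either strand. A match is a description of the letters and says nothing of binding in these cells.

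Gene counts came to between 25.4 and 31.7 per library in units of 1000000 reads. Levels are CPM, counts per 1000000, on library sizes scaled by the TMM method over all 36 libraries, a scaling that sets libraries of different composition on 1 scale. The labelled cell types carried their defining markers. Lrat, which esterifies retinol, lay between 1339 and 5275 CPM in the HSC libraries, between 0.504 and 19.7 CPM in LSECs and at up to 0.150 CPM in hepatocytes. Stab2, a scavenger receptor of the sinusoid, lay between 2208 and 5079 CPM in LSECs, and Alb (albumin) between 30448 and 68195 CPM in hepatocytes. Clec4f, a Kupffer cell receptor, was at 0 in all 12 h libraries of HSCs and hepatocytes, and averaged 0.0445 CPM in LSECs at 12 h, 0.0893 at 36 h and 1.25 in WT. In 5 of the 12 hepatocyte libraries (12 h replicate 1, 36 h replicates 1 and 2, WT replicates 1 and 2) Malat1, a nuclear RNA, lay between 333.9 and 677.6 CPM, and in the other hepatocyte libraries between 34.88 and 66.7 CPM. Hepatocyte results are given over all libraries and within those under 100 CPM. In bulk RNA, fewer cells of a kind and less RNA per cell cannot be told apart.

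**Figure D1:**
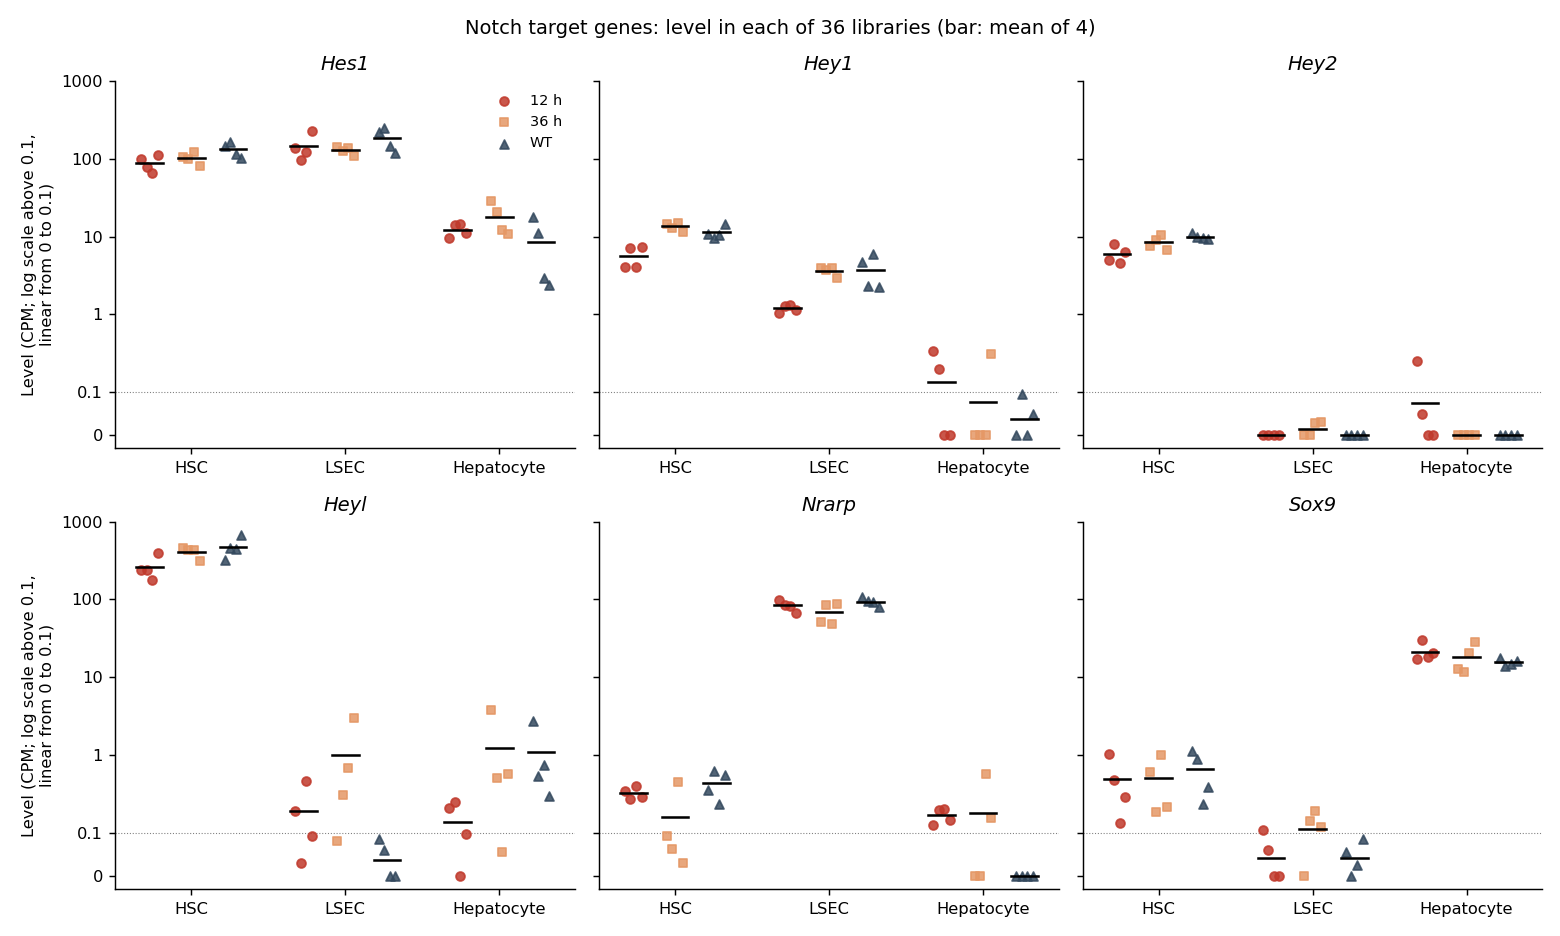
Level of each Notch target gene in each of the 36 libraries, in CPM on an axis that is logarithmic above 0.1 and linear below it, with 12 h (circles), 36 h (squares) and WT (triangles) in each cell type and a bar at the mean of 4. Heyl and Hey2 stood highest in HSCs, Nrarp in LSECs and Sox9 in hepatocytes, and the LSEC points of Hey1 at 12 h sat between 1.03 and 1.31, below the 36 h and WT points.

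Each cell type held its own set of these genes in the WT state. HSCs were high in Heyl, with Hey1 and Hey2 at lower levels, LSECs were high in Nrarp, and hepatocytes had most of the Sox9. Hes1 was high in both HSCs and LSECs. With edgeR's quasi-likelihood test and Benjamini-Hochberg adjustment over all genes, 5 of the 6 genes differed between HSC and LSEC WT libraries, where 56.8% of 13389 tested genes did. All 6 differed between HSCs and hepatocytes (79.1% of tested genes) and 5 differed between LSECs and hepatocytes (79.0%). At such shares of all genes the counts are no result about the 6 genes as a group.

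Heyl is the HEY member with the strongest known tie to mural cells. It had 324, 461, 448 and 676 CPM in HSC WT libraries, against 0.0848, 0.0609, 0 and 0 CPM in LSEC WT libraries and 2.76, 0.530, 0.737 and 0.30 CPM in hepatocyte WT libraries. Every HSC library stood far above every other. The log2 fold of HSCs over LSECs was 13.56 ± 0.74 (SE, adjusted p = 1.99e-09 by edgeR's quasi-likelihood test, Benjamini-Hochberg adjusted), resting on 5 reads in all LSEC WT libraries. The 89 reads in hepatocyte WT libraries put Heyl at a log2 fold of 8.73 ± 0.56 in HSCs over hepatocytes (adjusted p = 3.94e-09 by the same edgeR test).

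Hey2, a repressor known from heart and arteries, had 11.2, 9.91, 9.54 and 9.18 CPM in HSC WT libraries and no read in the 8 WT libraries of LSECs and hepatocytes. Counting 3 reads over a group as the floor, its level in HSC WT was at least 470.2-fold higher than in LSEC WT and at least 265-fold higher than in hepatocyte WT. Over all 24 LSEC and hepatocyte libraries it gathered 9 reads, 6 of them in hepatocyte 12 h replicate 1. Hey1 had 10.9, 9.69, 10.5 and 14.6 CPM in HSC WT libraries, 4.64, 2.28, 5.91 and 2.22 CPM in LSEC WT libraries, and 0, 0.0963, 0 and 0.050 CPM in hepatocyte WT libraries. The HSC and LSEC libraries did not overlap, and the log2 fold of HSCs over LSECs was 1.60 ± 0.33 (adjusted p = 0.000784 by edgeR's quasi-likelihood test, Benjamini-Hochberg adjusted). Against the 3 reads in hepatocyte WT libraries, HSC WT stood 307-fold higher, with a counting interval of 105 to 1489 at the 95% level.

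Hes1, the most widely used of the HES repressors, had 147, 164, 114 and 102 CPM in HSC WT libraries and 218, 252, 147 and 118 CPM in LSEC WT libraries. These groups overlapped, and the log2 fold of HSCs over LSECs of -0.48 had a 95% interval of -1.48 to 0.53 (adjusted p = 0.408 by edgeR's quasi-likelihood test, Benjamini-Hochberg adjusted). Hepatocyte WT libraries had 17.9, 11.1, 2.95 and 2.40 CPM of Hes1. They all lay below the HSC libraries, with a log2 fold of 3.91 ± 0.53 for HSCs over hepatocytes and of 4.39 ± 0.54 for LSECs over hepatocytes (adjusted p = 1.15e-05 and 4.30e-06 by the same edgeR test).

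Nrarp, the feedback inhibitor, had 0.351, 0.625, 0.234 and 0.556 CPM in HSC WT libraries, against 107, 94.3, 91.8 and 80.5 CPM in LSEC WT libraries and no read in hepatocyte WT libraries. The LSEC libraries stood far above all others. HSCs stood at a log2 fold of -7.70 ± 0.25 from LSECs (adjusted p = 6.24e-10 by edgeR's quasi-likelihood test, Benjamini-Hochberg adjusted), and LSEC WT was at least 2480.0-fold higher than hepatocyte WT at a floor of 3 reads over the group. HSC WT libraries held 10 LSEC markers at 0.167 to 0.381% of their summed LSEC WT level and Nrarp at 0.251 to 0.670% of its LSEC WT mean, and the part of LSEC RNA in these low Nrarp values was not tested.

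Sox9 had 1.11, 0.876, 0.234 and 0.389 CPM in HSC WT libraries, 0.0566, 0, 0.0261 and 0.0855 CPM in LSEC WT libraries, and 17.7, 14.1, 14.7 and 16.0 CPM in hepatocyte WT libraries. The 3 cell types did not overlap, and hepatocytes were highest. HSCs stood at a log2 fold of -4.58 ± 0.39 from hepatocytes (adjusted p = 7.87e-08 by edgeR's quasi-likelihood test, Benjamini-Hochberg adjusted). Krt19 and Krt7, keratins of bile duct cells, and Epcam, their surface marker, averaged 0.0375, 0.0234 and 0.0716 CPM in hepatocyte WT libraries. The full list of 9 bile duct markers, which holds these genes, summed to 21.4 to 30.2 CPM there, with none at 0. The list averaged 31.3 CPM in HSC WT and 0.548 CPM in LSEC WT libraries. In HSCs only 1 of the 9 genes passed the count filter, and Krt19, Krt7 and Epcam averaged 0.0321, 0.0156 and 0.0237 CPM in HSC WT. The sum is therefore no measure of bile duct RNA there. The part of bile duct cells in the Sox9 values was not tested.

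Levels per kilobase of exon let the members be set against each other. In HSC WT libraries Heyl stood at 93.3 ± 28.6 CPM per kilobase, Hes1 at 64.7 ± 14.1, Hey1 at 3.50 ± 0.671 and Hey2 at 2.17 ± 0.189 (SD, n = 4). Heyl thus held 94.2 ± 1.53% of the HEY level per kilobase in HSCs at 12 h, 93.0 ± 0.618% at 36 h and 94.0 ± 1.62% in WT. In LSEC WT libraries Hes1 stood at 90.1 ± 30.5 and Nrarp at 36.1 ± 4.17 CPM per kilobase, and Hey1, at 1.15 ± 0.558, held 99.3 ± 0.862% of the HEY level. In hepatocyte WT libraries Hes1 reached 4.21 ± 3.62 and Sox9 3.77 ± 0.382 CPM per kilobase. Hes6, a HES family member known in mouse neural cells as an inhibitor of Hes1, stood there at 65.8 CPM per kilobase, and at 5.05 in HSCs and 7.94 in LSECs. Hes5, a Notch target of the nervous system, had no read in any of the 36 libraries. Ordered by mean level, Hes1 ran from LSEC WT through LSEC 12 h, HSC WT, LSEC 36 h and HSC 36 h to HSC 12 h, neighbours in this order overlapping, and the 3 hepatocyte groups lay apart below them.

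The ligand and receptor genes also differed in level between the cell types. Of the ligands, Dll4 had a mean of 36.9 ± 8.92 CPM in HSC WT, 428 ± 74.7 in LSEC WT and 0.143 ± 0.204 in hepatocyte WT (SD, n = 4 each). Jag1 stood at 112 ± 17.6 CPM in HSC, 15 ± 4.59 in LSEC and 1.63 ± 0.632 in hepatocyte WT libraries, and Dll1 at 0.381 ± 0.276, 40.6 ± 14.8 and 5.71 ± 1.28 CPM in the same order. Jag2 was listed at 0 in HSC and hepatocyte WT libraries and averaged 0.855 ± 0.227 CPM in LSEC WT. Of the receptors, Notch3 had 73.6 ± 24 CPM in HSCs and 0.0223 ± 0.0290 in LSECs, a log2 fold of 11.50 ± 0.55. Notch4 had 10.1 ± 2.08 CPM in HSCs and 189.7 ± 10.3 in LSECs, a log2 fold of -4.22 ± 0.15. Both differed by edgeR's quasi-likelihood test, Benjamini-Hochberg adjusted (adjusted p = 5.02e-10 and 3.51e-11). Notch1 averaged 202 ± 18.4 CPM in HSC, 277 ± 62.0 in LSEC and 11.1 ± 1.95 in hepatocyte WT libraries, and Notch2 43.5 ± 2.36, 5.16 ± 1.48 and 48.5 ± 33.5 CPM in these cell types.

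At 12 h after the toxin Hes1 and the 3 HEY genes of stellate cells were lower than in WT. Of the 6 genes, 4 fell (Hes1, Hey1, Hey2 and Heyl) and none rose, by edgeR's quasi-likelihood test, Benjamini-Hochberg adjusted. In this comparison 15.1% of 12676 tested genes fell and 32.0% changed in either direction. The median log2 fold of the 6 genes was -0.653, against 0.00739 over all tested genes. Markers of other cells moved in the same comparison. Of 7 tested Kupffer cell markers 5 fell, and 10 monocyte and neutrophil markers summed to 659.9 ± 229.6 CPM at 12 h and 257 ± 37.0 CPM in WT (SD, n = 4), with 1 higher and 1 lower of 2 tested. The 10 HSC markers summed to 50463 ± 7526 CPM at 12 h and 64797 ± 8778 CPM in WT, with 2 higher and 3 lower of 10 tested, and 10 smooth muscle and pericyte markers to 1514 ± 383 CPM at 12 h and 1593 ± 166 CPM in WT. The part of these shifts in the values of the 6 genes was not tested.

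Hey1 in HSCs had 4.11, 7.15, 4.09 and 7.23 CPM at 12 h, 14.6, 12.9, 15 and 11.6 CPM at 36 h, and 10.9, 9.69, 10.5 and 14.6 CPM in WT. Every 12 h library lay below every library of both other groups. Hey1 fell at 12 h, with a log2 fold of -1.01 ± 0.21 (SE, adjusted p = 0.00263 by edgeR's quasi-likelihood test, Benjamini-Hochberg adjusted). It was higher at 36 h than at 12 h by a log2 fold of 1.25 ± 0.21 (adjusted p = 0.000884 by the same edgeR test), and at 36 h against WT the log2 fold of 0.24 had a 95% interval of -0.20 to 0.68 (adjusted p = 0.917).

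Hey2 in HSCs had 4.94, 8.05, 4.52 and 6.29 CPM at 12 h, 7.56, 9.11, 10.4 and 6.70 CPM at 36 h, and 11.2, 9.91, 9.54 and 9.18 CPM in WT. The 12 h libraries all lay below the WT libraries, and the 36 h libraries overlapped with both. Hey2 fell at 12 h with a log2 fold of -0.74 ± 0.19 (adjusted p = 0.0109 by edgeR's quasi-likelihood test, Benjamini-Hochberg adjusted). Its log2 fold of 0.50 at 36 h against 12 h did not pass (adjusted p = 0.0692 by edgeR), with a 95% interval of 0.08 to 0.92. It passed with DESeq2 (0.0438), without HSC 12 h replicate 2 (0.0166) and without HSC 36 h replicate 4 (0.0443). The log2 fold at 36 h against WT was -0.24 (95% interval -0.65 to 0.18).

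Heyl in HSCs had 239, 239.9, 180.3 and 400.3 CPM at 12 h, 462, 429.7, 431 and 316 CPM at 36 h, and 324, 461, 448 and 676 CPM in WT. All but replicate 4 of the 12 h libraries lay below the WT libraries, and that one lay between WT replicates 1 and 3. Heyl fell at 12 h with a log2 fold of -0.85 ± 0.24 (adjusted p = 0.0168 by edgeR's quasi-likelihood test, Benjamini-Hochberg adjusted). The call was lost without HSC 12 h replicate 3 (adjusted p = 0.0540) and without HSC WT replicate 4 (0.0628). Between 36 h and 12 h Heyl had a log2 fold of 0.63 that did not pass (adjusted p = 0.0680 by edgeR), and that passed with DESeq2 (0.0347), without HSC 12 h replicate 4 (0.00930) and without HSC 36 h replicate 4 (0.0486).

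Hes1 in HSCs had 99.7, 79.4, 65.3 and 110.4 CPM at 12 h, 106, 98.6, 123 and 81.3 CPM at 36 h, and 147, 164, 114 and 102 CPM in WT. The groups overlapped through 12 h replicate 4, which lay above WT replicate 4. Hes1 fell at 12 h with a log2 fold of -0.57 ± 0.19 (adjusted p = 0.0343 by edgeR's quasi-likelihood test, Benjamini-Hochberg adjusted). The call was lost without HSC 12 h replicate 2 (adjusted p = 0.0756) or replicate 3 (0.10), and without HSC WT replicate 1 (0.0883) or replicate 2 (0.107). It was also lost in a fit of only the groups compared (0.0509). The log2 fold of Hes1 at 36 h against WT was -0.36 (95% interval -0.77 to 0.04, adjusted p = 0.782 by edgeR).

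A single fit of all 36 libraries, which takes 1 estimate of the spread over all cell types, left Hey1 as the only one of the 4 that fell at 12 h in HSCs, and gave adjusted p-values of 0.287 for Hes1, 0.118 for Hey2 and 0.291 for Heyl. Nrarp and Sox9 were near the limit of detection in HSCs. Nrarp had 11, 9, 12 and 9 reads at 12 h, 3, 2, 14 and 1 reads at 36 h, and 12, 20, 7 and 20 reads in WT. Sox9 had 33, 16, 4 and 9 reads at 12 h, 20, 6, 31 and 7 reads at 36 h, and 38, 28, 7 and 14 reads in WT. The groups of both genes overlapped at 12 h, and neither passed (adjusted p = 0.607 and 0.673 by edgeR). Between 36 h and 12 h Nrarp did not pass with all libraries (adjusted p = 0.256 by edgeR) and passed without HSC 36 h replicate 3, the library with 14 reads (adjusted p = 0.0172).

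At 36 h none of the 6 genes differed from WT in HSCs by edgeR's quasi-likelihood test (Benjamini-Hochberg adjusted), where 0.142% of tested genes did. Nrarp had an unadjusted p of 0.0371 and was the only one of the 6 under 0.05, and DESeq2 also called none. Of the 6 genes, 1 (Hey1) was higher at 36 h than at 12 h, where 12.9% of tested genes were higher and 27.9% changed in either direction.

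**Figure D2:**
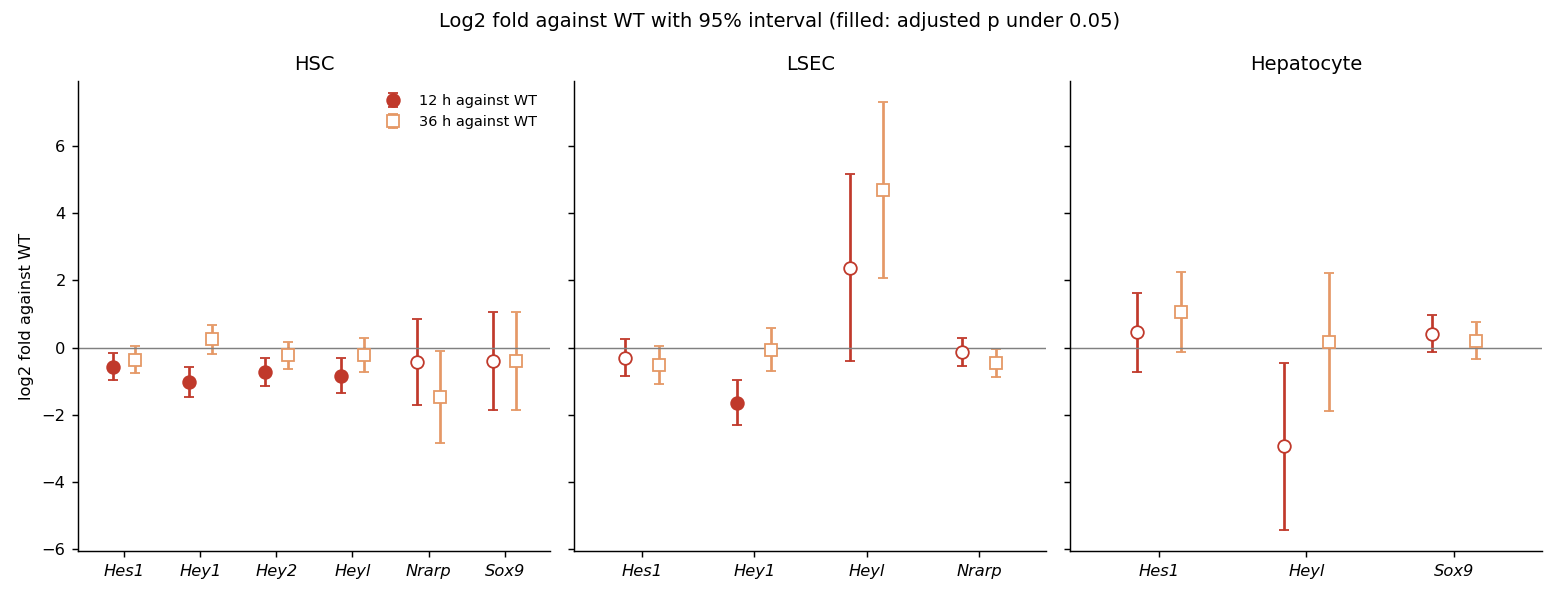
Log2 fold at 12 h (circles) and 36 h (squares) against WT for the Notch target genes that passed the count filter in each cell type, with 95% intervals and filled symbols where the adjusted p was under 0.05. Filled symbols are Hes1, Hey1, Hey2 and Heyl at 12 h in HSCs and Hey1 at 12 h in LSECs, all below 0.

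In LSECs 4 of the 6 genes passed the filter on low counts (Hes1, Hey1, Heyl and Nrarp). At 12 h Hey1 fell and the others did not pass by edgeR's quasi-likelihood test (Benjamini-Hochberg adjusted), where 8.50% of 12286 tested genes fell and 18.2% changed in either direction. Hey1 had 1.03, 1.28, 1.31 and 1.13 CPM at 12 h, 3.90, 3.76, 3.97 and 2.89 CPM at 36 h, and 4.64, 2.28, 5.91 and 2.22 CPM in WT. The 12 h libraries, with 37 to 48 reads each, were the tightest group and lay below every 36 h and WT library.

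Its log2 fold was -1.64 ± 0.31 at 12 h against WT (adjusted p = 0.00320 by edgeR's quasi-likelihood test, Benjamini-Hochberg adjusted) and 1.58 ± 0.31 at 36 h against 12 h (adjusted p = 0.00344). Of the 4 genes, 1 was higher at 36 h than at 12 h, where 10.6% of tested genes were higher and 21.3% changed in either direction. Against WT, Hey1 at 36 h had a log2 fold of -0.06 (95% interval -0.70 to 0.57), and leaving out LSEC 36 h replicate 4, WT replicate 1 or WT replicate 3 turned its sign. LSEC libraries held the 10 HSC markers at 0.403 to 1.08% of their summed HSC WT level, and Hey1 at 8.99 to 51.7% of its HSC WT level. Of 8 tested arterial and vein endothelial markers 2 (Ltbp4 and Efnb2) fell at 12 h and none rose, and their median log2 fold was 0.0863, against -0.0172 over all tested genes. The 10 listed genes summed to 3354 ± 640.1 CPM at 12 h, 3648 ± 465 at 36 h and 5313 ± 731 in WT (SD, n = 4), and Ltbp4 alone averaged 2773 CPM at 12 h and 4704 CPM in WT. Median and sum thus differ in sign. At 36 h the sum lay between 2994 and 4057 CPM, below all WT libraries, where Hey1 overlapped with WT. The part of these markers in the Hey1 result was not tested.

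Nrarp in LSECs had 99.0, 84.9, 83.0 and 67.8 CPM at 12 h, 51.7, 84.1, 48.3 and 88.2 CPM at 36 h, and 107, 94.3, 91.8 and 80.5 CPM in WT. The groups overlapped, and at 36 h replicates 1 and 3 lay apart from replicates 2 and 4 and below every other LSEC library. The log2 fold was -0.13 (95% interval -0.54 to 0.27) at 12 h and -0.46 (-0.87 to -0.06) at 36 h against WT, and neither passed (adjusted p = 0.674 and 0.418 by edgeR).

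Hes1 in LSECs had 139, 97.0, 121 and 228 CPM at 12 h, 140.0, 126, 137 and 109 CPM at 36 h, and 218, 252, 147 and 118 CPM in WT. The groups overlapped, with 12 h replicate 4 and WT replicates 1 and 2 at 218 CPM or more and every other library at 147 CPM or less. The log2 fold was -0.30 (95% interval -0.86 to 0.26) at 12 h and -0.53 (-1.09 to 0.03) at 36 h against WT (adjusted p = 0.455 and 0.510 by edgeR). Between 36 h and 12 h it was -0.22, and turned to 0.075 without LSEC 12 h replicate 4.

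Immediate early genes, which cells switch on within minutes of a stimulus, cell isolation included, differed between libraries of the same group. The 22 genes of the list summed in LSECs to 23565, 5065, 7504 and 24974 CPM at 12 h, 4469, 4258, 4752 and 3997 CPM at 36 h, and 8233, 21859.7, 3491 and 3066 CPM in WT. The 3 LSEC libraries highest in Hes1 were among the 4 highest in this sum, and 12 h replicate 1, with 139 CPM of Hes1, was the other. In HSCs the list summed to 18208, 5099, 5026 and 21732 CPM at 12 h, 3229, 3091, 2757 and 2879 CPM at 36 h, and 3922, 10845, 3101 and 3010.4 CPM in WT. In HSCs 11 of the 22 genes rose at 12 h and none fell, where 2150 of 12676 tested genes rose and 32.0% changed in either direction. Hes1 in HSCs at 12 h was highest in the libraries with the largest sums. In LSECs 2 of the 22 genes rose at 12 h and none fell, where 1197 of 12286 tested genes rose. The part of this variation in the Hes1 values was not tested.

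**Figure D3:**
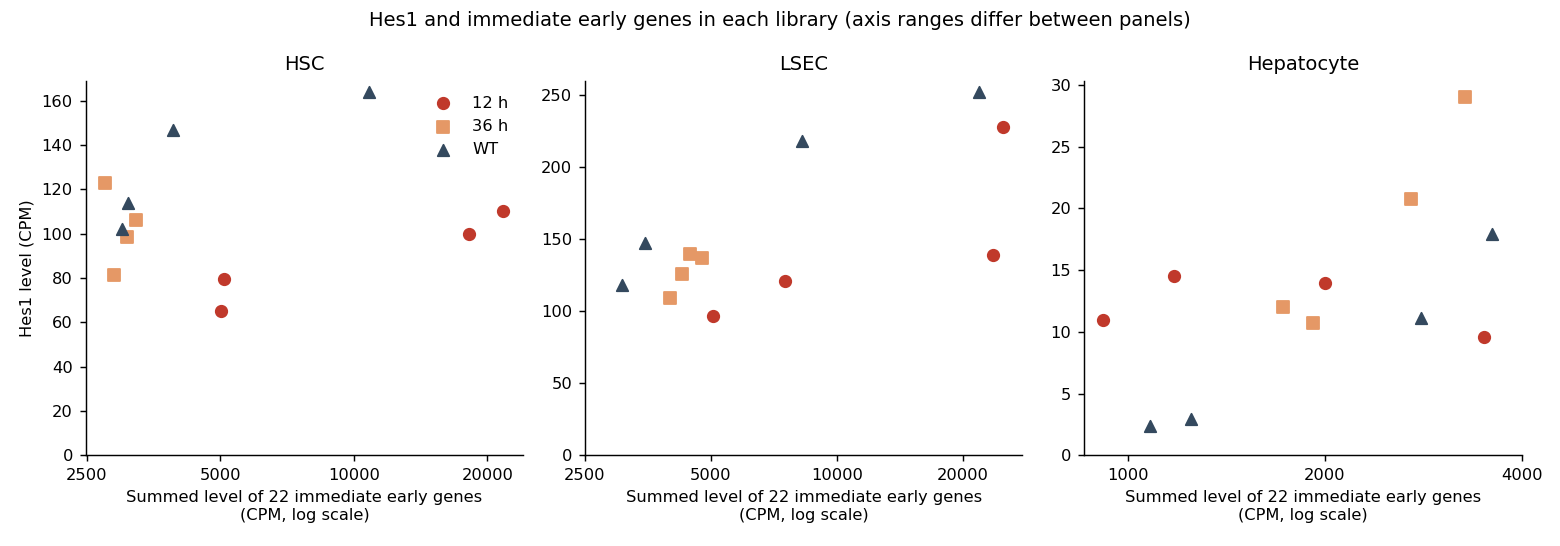
Hes1 level against the summed level of 22 immediate early genes in each library (both in CPM, horizontal axis logarithmic), with 12 h (circles), 36 h (squares) and WT (triangles) in a panel for each cell type. In LSECs the points at 218 CPM of Hes1 or more are 12 h replicate 4 and WT replicates 1 and 2, and in HSCs the 12 h points lie at larger sums and lower Hes1 than most WT points.

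Heyl in LSECs was scarce, with 7, 1, 17 and 3 reads at 12 h, 3, 11, 25 and 100 reads at 36 h, and 3, 2, 0 and 0 reads in WT. All but replicate 1 of the 36 h libraries lay above the WT libraries, replicate 4 by far. At 36 h against WT the log2 fold was 4.69 ± 1.21 and did not pass by edgeR (unadjusted p = 0.00181, adjusted p = 0.30), while DESeq2 gave an adjusted p of 0.0173. Heyl passed the count filter only through LSEC 12 h replicate 3 and 36 h replicates 2, 3 and 4, and through no WT library. The filter thus favoured a fold above 0, and the fold and p-values are a description. LSEC 36 h replicate 4, the library highest in Heyl, held Lrat at 19.7 and Reln (reelin, an HSC marker) at 19.6 CPM. The other 36 h libraries held 0.785 to 3.12 and 0.379 to 2.30 CPM of them. The 10 HSC markers summed to 701 CPM in LSEC 36 h replicate 4, against 345 to 406 CPM in the others at 36 h. Its Heyl level was 0.624% of that of HSC WT where the marker sum was 1.08%. In LSEC WT libraries the marker sum already stood at 0.403 to 0.576% of HSC WT, with Heyl at 0 to 0.0178%, so the sum is no proportional gauge of HSC RNA. LSEC 12 h replicate 3, with 17 reads of Heyl, held Lrat at 2.75 and Reln at 3.24 CPM. Its marker sum of 284 CPM was the lowest at 12 h, and WT replicate 1, with 3 reads, had 373 CPM. The part of HSC RNA in the Heyl values was not tested.

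At 36 h none of the 4 genes differed from WT in LSECs, and 0 of 12286 tested genes (0%) did. At an unadjusted p under 0.05 there were 1288 genes, Heyl and Nrarp among them, and DESeq2 called 109 genes. Hey2 had 2 reads over all 12 LSEC libraries, both at 36 h, and Sox9 had 6 reads at 12 h, 16 at 36 h and 6 in WT.

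In hepatocytes Hes1, Heyl and Sox9 passed the filter. None of the 3 differed from WT at 12 h or at 36 h, or between these times, over all libraries. By edgeR's quasi-likelihood test (Benjamini-Hochberg adjusted), 0 of 11326 tested genes (0%) did in each of these comparisons. At an unadjusted p under 0.05 there were 453 genes at 12 h, 564 at 36 h and 725 between the times, and DESeq2 called 45, 60 and 25 genes. Of the 3 genes, Heyl was under 0.05 unadjusted at 12 h and between the times, and DESeq2 called none of the 3.

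Hes1 in hepatocytes had 9.55, 14.0, 14.5 and 11.0 CPM at 12 h, 29.0, 20.8, 12.0 and 10.7 CPM at 36 h, and 17.9, 11.1, 2.95 and 2.40 CPM in WT. The groups overlapped. The WT values fell into a pair above 11 CPM and a pair under 3 CPM, the same pairs that Malat1 separates. The log2 fold over all libraries was 0.46 (95% interval -0.72 to 1.63) at 12 h and 1.05 (-0.13 to 2.24) at 36 h against WT (adjusted p = 0.999 and 1.0 by edgeR).

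Within the libraries under 100 CPM of Malat1, a choice made after the values were seen, the Hes1 levels were 14.0, 14.5 and 11.0 CPM at 12 h, 12.0 and 10.7 CPM at 36 h, and 2.95 and 2.40 CPM in WT, and 12 h and 36 h lay apart from WT. There the log2 fold was 2.29 ± 0.22 at 12 h and 2.08 ± 0.23 at 36 h (adjusted p = 0.0189 and 0.0291 by edgeR's quasi-likelihood test, Benjamini-Hochberg adjusted). In these fits 1 of the 3 genes passed at each time, where 0.0528% of 11363 tested genes passed at 12 h and 0.0880% at 36 h. Above 100 CPM, Hes1 was 9.55 CPM in the lone 12 h library, 29.0 and 20.8 CPM at 36 h, and 17.9 and 11.1 CPM in WT, so that the 12 h library lay below both WT libraries there. With the side of Malat1 as a term over all 12 libraries, the log2 fold was 1.2 ± 0.44 at 12 h and 1.24 ± 0.40 at 36 h and did not pass (adjusted p = 0.534 and 0.264 by edgeR). The immediate early list summed to 2002, 1177 and 917 CPM at 12 h, 1725 and 1922 CPM at 36 h, and 1248 and 1082 CPM in WT in the libraries under 100 CPM of Malat1. LSEC markers were at 0.0356 to 0.0710% of their LSEC WT level in the hepatocyte libraries, where Hes1 was at 1.31 to 15.8% of its level in LSEC WT.

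**Figure D4:**
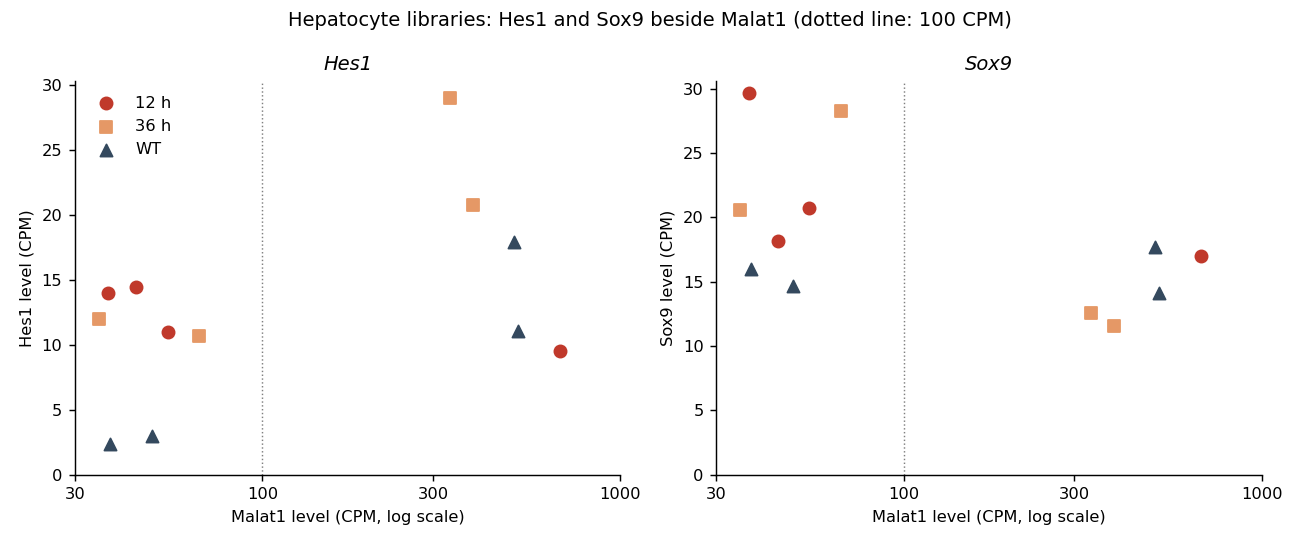
Hes1 (left) and Sox9 (right) levels against Malat1 in the 12 hepatocyte libraries (CPM, Malat1 axis logarithmic, dotted line at 100 CPM), with 12 h (circles), 36 h (squares) and WT (triangles). Left of the line the Hes1 points at 12 h and 36 h lie between 10.7 and 14.5 CPM and the WT points at 2.95 and 2.40 CPM.

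Sox9 in hepatocytes had 17.0, 29.7, 18.2 and 20.7 CPM at 12 h, 12.6, 11.6, 20.6 and 28.3 CPM at 36 h, and 17.7, 14.1, 14.7 and 16.0 CPM in WT. The 12 h libraries reached down into the WT range through replicate 1 alone, the 12 h library above 100 CPM of Malat1. At 36 h replicates 1 and 2, above 100 CPM of Malat1, lay below WT, and replicates 3 and 4, under it, lay above WT. Within WT the libraries above and under 100 CPM of Malat1 overlapped in Sox9. The log2 fold was 0.42 (95% interval -0.14 to 0.97) at 12 h and 0.20 (-0.36 to 0.76) at 36 h against WT (adjusted p = 0.999 and 1.0 by edgeR). In libraries under 100 CPM of Malat1 it was 0.57 ± 0.22 at 12 h and 0.66 ± 0.24 at 36 h and did not pass either (adjusted p = 0.750 and 0.651 by edgeR).

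Heyl in hepatocytes had 0.211, 0.247, 0 and 0.0981 CPM at 12 h, 3.74, 0.508, 0.0562 and 0.563 CPM at 36 h, and 2.76, 0.530, 0.737 and 0.30 CPM in WT. The 12 h libraries, with at most 5 reads, lay below the WT libraries, and replicate 1 was far above the others both at 36 h and in WT. The log2 fold at 12 h was -2.94 ± 1.15 (unadjusted p = 0.0234, adjusted p = 0.999 by edgeR). Heyl passed the count filter here through WT and 36 h libraries and through no 12 h library. The filter thus favoured a fold below 0 at 12 h, and the fold and p-values are a description. Lrat had no read in the 2 libraries high in Heyl, nor in any other hepatocyte WT library, so it does not set them apart. The 10 HSC markers were at 0.0253 to 0.0776% of their HSC WT level in the hepatocyte libraries. They summed to 44.8 CPM in 36 h replicate 1 (20.9 to 50.3 CPM at 36 h) and 38.9 CPM in WT replicate 1 (16.4 to 38.9 CPM in WT). At 12 h they summed to 16.6 to 25.8 CPM, and the part of HSC RNA in the Heyl values was not tested. Hey1 had 12 reads at 12 h, 6 at 36 h and 3 in WT over the hepatocyte libraries, and Nrarp had 14, 13 and 0, with reads in every 12 h library and in no WT library. These counts are too low for a comparison.

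The responses of the cell types were compared with each other in 1 fit of all 36 libraries, for genes that passed the filter in both cell types, a limit set after the values were seen. None of the 4 genes shared by HSCs and LSECs differed in its 12 h response by edgeR's quasi-likelihood test (Benjamini-Hochberg adjusted), where 1.62% of 14104 tested genes did. For Hey1, which fell in both, the difference of HSC minus LSEC log2 folds was 0.62 (95% interval -0.49 to 1.73, adjusted p = 0.754 by edgeR). For Hes1 it was -0.27 (-1.36 to 0.82, adjusted p = 0.943). Neither an unequal nor an equal fall was shown by these intervals.

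Against hepatocytes, none of Hes1, Heyl and Sox9 differed in the 12 h response of HSCs (9.20% of tested genes did), and neither Hes1 nor Heyl in that of LSECs (3.57%). The Hes1 difference of HSC minus hepatocyte log2 folds was -1.10 (95% interval -2.22 to 0.02, adjusted p = 0.216 by edgeR), and passed without hepatocyte WT replicate 1 (adjusted p = 0.0378). The Heyl difference of LSEC minus hepatocyte log2 folds, 5.27 (1.46 to 9.08), did not pass by edgeR (adjusted p = 0.105) and passed with DESeq2 (0.00729), and rests on 28 reads in LSEC 12 h and 12 reads in hepatocyte 12 h libraries. Heyl passed the filter only through LSEC 12 h and 36 h libraries and through hepatocyte 36 h and WT libraries. That filter favoured a difference above 0. Hey2 and Nrarp passed for HSCs against hepatocytes (adjusted p = 0.0416 and 0.0460 by edgeR), but hepatocyte WT libraries had no read of either, so the fitted size is no measure of a difference, and both calls were lost with replicate number as a block (0.0605 and 0.0597). At 36 h none of the shared genes differed between any cell types, where 0%, 0.00709% and 0.00709% of tested genes did for HSCs against LSECs, HSCs against hepatocytes and LSECs against hepatocytes. Of these genes, Heyl for both LSEC contrasts and Hes1 for both hepatocyte contrasts had unadjusted p-values under 0.05, and DESeq2 called none of them.

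The wider Notch pathway was read from lists of genes by role, which were chosen with earlier results of these data known. Each count in HSCs at 12 h stands beside 32.0% of all tested genes that changed there, with 15.1% of all tested genes lower and 2150 of 12676 higher. Each count in LSECs at 12 h stands beside 18.2% that changed, with 8.50% lower and 1197 of 12286 higher. Of the 4 receptors tested in HSCs at 12 h, Notch2 rose to 60.9 ± 8.67 CPM at 12 h, against 43.5 ± 2.36 CPM in WT (log2 fold 0.49 ± 0.11, adjusted p = 0.00510 by edgeR's quasi-likelihood test, Benjamini-Hochberg adjusted) and the others did not pass. Of the 3 ligands tested, Dll1 rose, at 1.55 ± 0.989 CPM at 12 h and 0.381 ± 0.276 CPM in WT (log2 fold 2.01 ± 0.56, adjusted p = 0.0153). Dll4 (log2 fold 0.18 ± 0.25) and Jag1 (-0.36 ± 0.17) did not pass.

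Among 14 tested genes of the transcription complex and its co-repressors, 4 fell in HSCs at 12 h and none rose, where 15.1% of all tested genes fell. Tle2, Tle1 and Tle4 encode Groucho family co-repressors, which HES proteins recruit, and Maml2 is a Mastermind co-activator. Tle2 fell to 1.18 ± 0.407 CPM at 12 h, against 6.53 ± 1.70 CPM in WT (log2 fold -2.46 ± 0.30, adjusted p = 0.000106 by edgeR's quasi-likelihood test, Benjamini-Hochberg adjusted). Tle1, Tle4 and Maml2 had log2 folds of -0.38 ± 0.12, -0.53 ± 0.17 and -0.71 ± 0.24 (adjusted p = 0.0255, 0.0330 and 0.0337). The list's median log2 fold was -0.188. Rbpj itself had 61.7 ± 11.6 CPM at 12 h and 68.0 ± 8.02 CPM in WT and did not pass.

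Of 9 tested genes of receptor cleavage, 3 rose and 4 fell in HSCs at 12 h, where 32.0% of all tested genes changed, and the median log2 fold was 0.276. Within gamma-secretase, which makes the last cut, the subunits Ncstn (-0.49 ± 0.10), Aph1b (-0.51 ± 0.14) and Aph1c (-2.20 ± 0.47) fell and Aph1a (0.42 ± 0.12) rose. Of the sheddases that make the cut before it, Adam10 fell (-0.51 ± 0.12) and Adam17 rose (0.60 ± 0.17). The adjusted p-values of these 6 named genes lay between 0.00263 and 0.0188 by edgeR's quasi-likelihood test, Benjamini-Hochberg adjusted. Of 6 tested genes of ligand endocytosis and receptor glycosylation, Pofut1 and Mib1 fell, and of 7 attenuators Dtx4 rose.

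Among other HES-related and SOX genes, Bhlhe40, a related bHLH repressor of the clock and of stress responses, rose in HSCs to 123 ± 30.3 CPM at 12 h, against 24.3 ± 11.0 CPM in WT (log2 fold 2.35 ± 0.32, adjusted p = 0.000189 by edgeR's quasi-likelihood test, Benjamini-Hochberg adjusted). Hes6 had 9.68 ± 2.72 CPM at 12 h and 9.13 ± 1.54 CPM in WT and did not pass. Of 14 other reported targets Nfkb2 (log2 fold 2.23 ± 0.22) and Flt1 (1.38 ± 0.49) rose and none fell, with a list median of 0.305. Of 8 tested SOX genes Sox7 rose (1.29 ± 0.40) and Sox6 fell (-1.77 ± 0.34). At 36 h against WT no gene of these 9 lists passed in HSCs by edgeR's test, where 0.142% of all tested genes did.

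**Figure D5:**
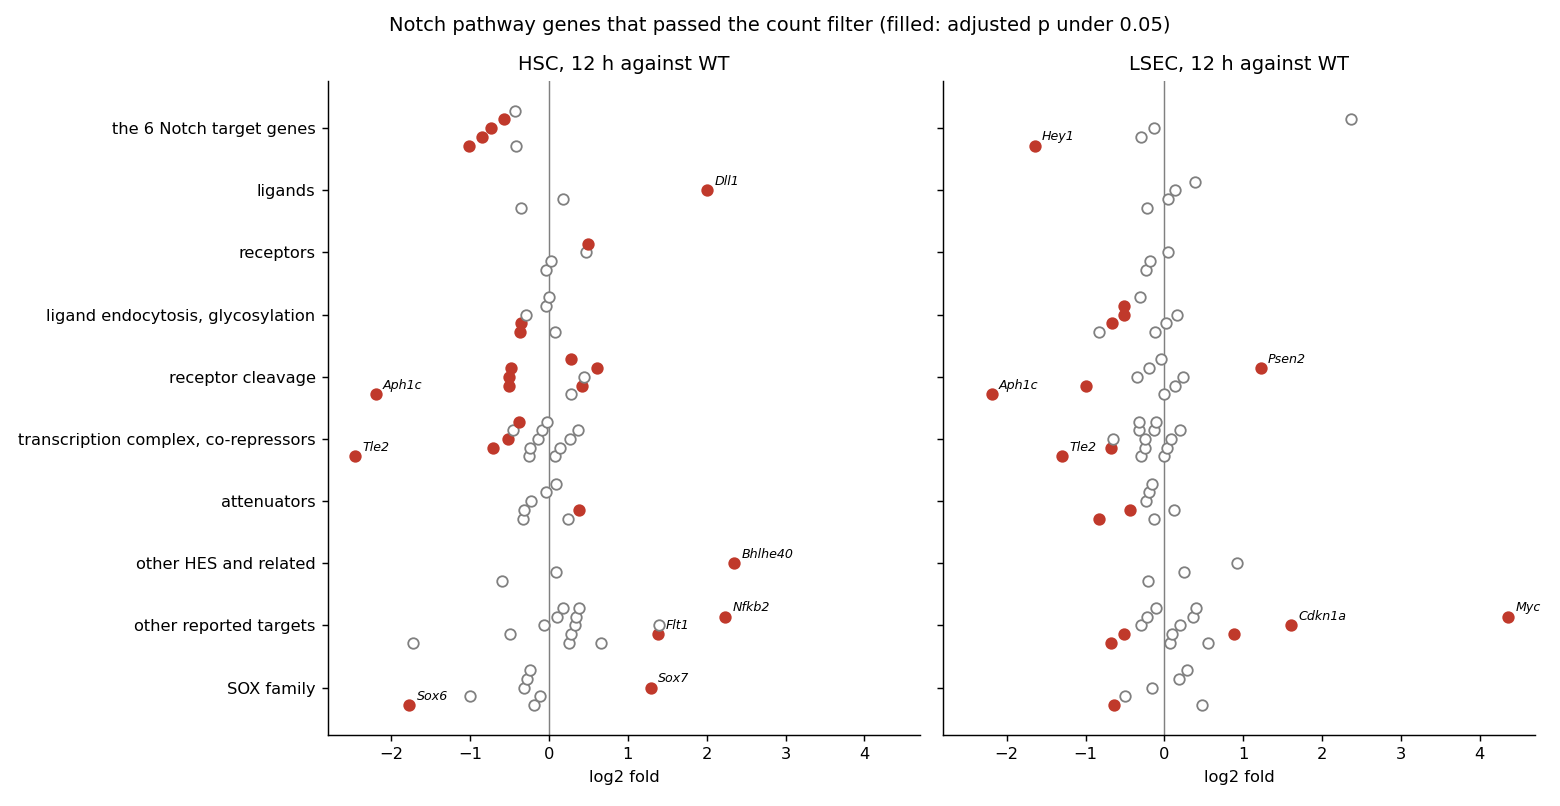
Log2 fold at 12 h against WT in HSCs (left) and LSECs (right) of the Notch pathway genes that passed the count filter, in rows by role. Points are filled where the adjusted p was under 0.05, and only filled points beyond a log2 fold of 1.2 in either direction are named. In HSCs the filled points of the 6 target genes and of the transcription complex all lie below 0, and in LSECs no ligand or receptor is filled.

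In LSECs at 12 h none of 4 tested ligands and 3 tested receptors passed. Dll4 had 362 ± 64.3 CPM at 12 h and 428 ± 74.7 CPM in WT, and Notch4 had 159 ± 4.25 CPM at 12 h and 189.7 ± 10.3 CPM in WT. Of 8 genes of ligand endocytosis and glycosylation 3 fell and none rose, where 8.50% of all tested genes fell. Mfng, a fringe glycosyltransferase that tunes which ligands Notch hears, was at 46.9 ± 3.44 CPM at 12 h and 67.7 ± 8.25 CPM in WT (log2 fold -0.51 ± 0.10, adjusted p = 0.00394 by edgeR's quasi-likelihood test, Benjamini-Hochberg adjusted). Mib1 and Mib2, ubiquitin ligases that activate ligands, were the others. Of 9 genes of receptor cleavage Psen2 rose (1.22 ± 0.13) and Aph1b (-0.99 ± 0.20) and Aph1c (-2.19 ± 0.48) fell.

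Tle2 (log2 fold -1.29 ± 0.29) and Kdm5a (-0.68 ± 0.12) fell among 14 genes of the LSEC transcription complex (Kdm5a encodes a histone demethylase that works with RBPJ in repression), and Dtx3 and Itch among 7 attenuators. Of 14 other reported targets 3 rose and 2 fell. Myc reached 179 ± 123 CPM at 12 h, against 8.86 ± 4.95 CPM in WT (log2 fold 4.36 ± 0.55, adjusted p = 0.000397 by edgeR's quasi-likelihood test, Benjamini-Hochberg adjusted), and Cdkn1a and Nfkb2 rose too. Efnb2, an arterial ephrin ligand that Notch induces in endothelium, fell to 93.0 ± 8.10 CPM at 12 h, against 151 ± 29.4 CPM in WT (log2 fold -0.67 ± 0.13, adjusted p = 0.00340), and was higher at 36 h than at 12 h (0.43 ± 0.13, adjusted p = 0.0303). Id3 (-0.51 ± 0.14) was the other that fell. In hepatocytes no gene of these lists passed at 12 h or 36 h, where 0 of 11326 tested genes (0%) did.

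The genes whose levels ran most like each member over the 12 libraries of its highest cell type were found by Pearson's r of log2(CPM + 1), among genes at a mean of at least 5 CPM. The points share their groups and library depths, and no test was made. For Hey1 in HSCs these were Ccbe1 (r = 0.970), Trp53i11 (0.963) and Clstn3 (0.961), for Hey2 Ryk (0.974), Senp7 (0.946) and Zscan22 (0.945), and for Heyl Ptger3 (0.936), Cst3 (0.929) and Nipa1 (0.916). For Hes1 in LSECs they were Klf4 (0.858), Klf2 (0.836), both on the immediate early list, and Cnst (0.832). For Nrarp in LSECs they were Sec23ip (0.841), Mars2 (0.755) and Notch4 (0.744), and for Sox9 in hepatocytes Lrrc59 (0.947), Copg1 (0.933) and Lmna (0.922). Spearman's rho ran from 0.315 for Mars2 to 0.944 for Ryk and Copg1.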

How the data were processed

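The deposited files hold raw read counts per gene, 1 file per library. Per the submitters' processing notes, the authors used FastQC 0.11.4, Trimmomatic 0.35, TopHat2 2.1.0, SAMtools 0.1.18 and mm10. Counting tool, strand setting and annotation: not given in the sources used here, so reads shared by related or overlapping genes may be split in unknown ways. Reads in no gene (4.89 to 9.02% of a library) and ambiguous reads (0.887 to 1.51%) stayed out of library sizes. Of 54 within-group pairs of libraries, 0 were identical.

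Counts were tested with edgeR 4.0.16 in R 4.3.3 (glmQLFit, glmQLFTest, TMM scaling, filterByExpr with a minimum count of 10 and minimum total of 15), with Benjamini-Hochberg adjustment over all tested genes and a call at an adjusted p under 0.05. A separate fit of 3 groups was made per cell type, WT comparisons used 12 libraries, and response differences used 36. SE is the log2 fold over the root of F, and intervals are at 95%. The script was tested on simulated data. Printed levels use 1 scaling over 36 libraries, folds the scaling of their own fit. Counting intervals and the floor of 3 counts cover counting error only.

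Alternatives were RLE scaling, no filter, DESeq2 1.42.0, other sets of libraries, a term for Malat1, a replicate block and leaving out each library. Same-numbered libraries correlated above 0.1 in every pair for HSC 36 h and WT (0.142 to 0.301), hepatocyte 36 h and WT (0.506 to 0.64), and HSCs and LSECs at 12 h (0.235 to 0.515), 36 h (0.167 to 0.287) and WT (0.142 to 0.453). The labels do not state a pairing. Between HSCs and LSECs the same number was the best match for 4 replicates at 12 h, 4 at 36 h and 2 in WT. The main fits treated all libraries as unpaired, and replicate number entered only in the alternative with a block. In the fit of all 36 libraries that block joined each number over all cell types and times. It therefore did not model pairs of HSC and LSEC libraries within a time, and the response differences leave such pairs out. The 6 genes, the gene lists, the tests and the rule for named genes (the 6 genes in every comparison, up to 4 called genes of a list by smallest adjusted p, all ligands and receptors in WT, and the 3 genes most like each member) were chosen with earlier results of these data known. Genes named beyond that rule (Rbpj, Hes6, Hes5, the remaining cleavage genes and the markers) were chosen after their values were seen. Values of some listed genes are not reported here.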

Additional observations from a re-analysis of the deposited data

Results flagged for a closer look

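Of 38 groups of 4 libraries with at least 10 reads of a gene in 1 library, 2 held a library whose gap to its nearest neighbour passed Dixon's 95% limit for its share of the group's range, and chance alone flags about 1 in 20 groups. Heyl in hepatocyte 36 h replicate 1 stood at 3.74 CPM, against 0.0562 to 0.563 CPM in the other 36 h libraries. The Lrat level was 0 in that library and also in 36 h replicates 2 and 3. The 10 HSC markers summed to 44.8 CPM in replicate 1, within 20.9 to 50.3 CPM over the 36 h libraries. The part of other cells in the Heyl value was not tested further. Nrarp in HSC 36 h replicate 3 stood at 0.446 CPM on 14 reads, against 0.0306 to 0.0915 CPM in the other 36 h libraries, and within the HSC WT range of 0.234 to 0.625 CPM.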

How the results depend on the processing

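Of 1104 values of single genes recomputed under another setting, 1058 kept direction and side of the threshold, 11 lost a call, 13 gained one and 22 changed sign. RLE scaling and the absence of a low-count filter changed no call among these values. In HSCs at 12 h the count of genes called was 4, 1 in a fit of all 36 libraries, and 2 to 4 with a library left out. Between 36 h and 12 h in HSCs it was 1, 3 with DESeq2, and 1 to 3 with a library left out. DESeq2 called 1 gene (Heyl) in LSECs at 36 h and 1 for the 12 h response of LSECs against hepatocytes, where edgeR called 0. Both calls are of Heyl, which passed the filter in these cell types only through libraries where it was high. Within hepatocyte libraries under 100 CPM of Malat1 1 gene (Hes1) was called at 12 h and 1 at 36 h. The 12 h response of HSCs against hepatocytes gave 0 to 1 calls with a library left out. With replicate number as a block, 2 genes passed between 36 h and 12 h in HSCs, as Heyl gained a call (adjusted p = 0.0425 by edgeR), and Hes1 lost its call at 12 h in HSCs (0.0525). In both comparisons some same-numbered libraries did not correlate above 0.1. The block turned Hey1 in LSECs at 36 h to 0.014 and Heyl in hepatocytes at 36 h to -0.20, and ended the calls of Hey2 (0.0605) and Nrarp (0.0597) in the 12 h response of HSCs against hepatocytes. It changed no other call of the 6 genes. The Heyl value in hepatocytes at 36 h also turned with Malat1 as a term (-0.028) and under 100 CPM of Malat1 (-0.73), as did Hes1 (-0.22) and Sox9 (0.088) between 36 h and 12 h there. None of these sign changes was of a called value, and the cause was not tested. With 1 library left out, log2 folds ran from -0.37 to 0.075 for Hes1 in LSECs between 36 h and 12 h, from -0.25 to 0.25 for Hey1 in LSECs at 36 h, from -1.56 to 1.26 for Heyl in hepatocytes at 36 h, from -0.059 to 0.36 for Sox9 in hepatocytes at 36 h and from -0.54 to 0.71 for Sox9 in HSCs between 36 h and 12 h. The response differences ran from -0.46 to 0.034 for Hes1 at 12 h and from -0.038 to 0.32 for Hes1 and -0.013 to 0.48 for Hey1 at 36 h (HSC minus LSEC), and from -1.51 to 1.28 for Heyl at 36 h (HSC minus hepatocyte). Over all genes, calls at 36 h in HSCs numbered 18, against 129 with DESeq2, 45 with only the groups compared, 10 with the block and 2 to 33 with a library left out. In LSECs at 12 h they numbered 2241, against 1460 in the fit of all libraries. In LSECs at 36 h they were 0, against 109 with DESeq2 and 34 in the fit of all libraries. Hepatocyte calls of 0 became 31 at 12 h, 48 at 36 h and 9 between them in that fit. The 12 h response differences of LSECs from HSCs (229) and from hepatocytes (503) became 465 and 991 with DESeq2, that from HSCs 380 with only the groups compared, and that from hepatocytes 243 to 581 with a library left out. Response differences at 36 h, called for 0 genes (HSCs and LSECs), 1 (HSCs and hepatocytes) and 1 (LSECs and hepatocytes), numbered 12, 64 and 95 with DESeq2. Within hepatocyte libraries under 100 CPM of Malat1 calls were 6 at 12 h and 10 at 36 h, and with Malat1 as a term 2 and 10. Hepatocyte calls with the block were 1 at 12 h, 5 at 36 h and 3 between them. Counts of a few reads limit Nrarp and Sox9 in HSCs, Heyl in LSECs and hepatocytes, and Hey1 in LSECs at 12 h.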
